A study of Homo sapiens with 16 samples.

Results

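Type I interferon-stimulated genes are the set of genes that cells turn on when they sense type I interferon. A named list of 44 of them was followed here through A549 and H2023, which are established cell lines from human non-small cell lung cancers. The list was taken by symbol, not by any measured value, but earlier results of these data were known when genes and lists were chosen. All 44 were found among the 18227 genes of each of the 4 deposited tables. In each line, cells in which ZC3H12A had been knocked out were set against wild-type cells, either after 3 days of normal culture or after 7 days of a culture that enriches for stem-like cells growing as oncospheres. This gives 8 groups of 2 RNA-seq libraries, and no interferon or other stimulus is named in the labels. The titles name 1 knockout clone per line, so the edit and anything else that sets that clone apart cannot be told apart. Culture type and days in culture change together. Nothing in the labels says that the replicates came from separate cultures, so p-values measure only the spread between these libraries, which may be technical. These are bulk libraries, in which fewer cells with a transcript and less transcript per cell cannot be told apart.

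Interferon-alpha and interferon-beta bind the IFNAR1 and IFNAR2 receptor chains, whose kinases JAK1 and TYK2 phosphorylate transcription factors, STAT2 among them. STAT2 and IRF9 are parts of the complex ISGF3, which binds a DNA element, the interferon-stimulated response element, in the promoters of its targets. The targets include sensors of viral RNA, enzymes that degrade RNA or block translation, the ubiquitin-like modifier ISG15, and the transcription factors of the pathway itself. ZC3H12A encodes Regnase-1, an RNase that shortens the life of many inflammatory mRNAs. Epithelial cells, including lung cancer cells, can run this programme at a low level without added interferon.

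Promoter sequences are shown first, because ISGF3 binds the response element in the promoters of its targets. Windows from 250 bases before to 50 bases after the start were taken from RefSeq (GRCh38.p14) for 38 of the 44 genes. The core of the element was searched on both strands as GAAA, any 2 bases and GAAA, which reads TTTC, any 2 bases and TTTC on the other strand. It was present in a window of 25 of 38 genes (65.8%), against 4.38% of all 27305 genes with such a window. A core of the STAT dimer site, TTCNNNGAA, which is its own reverse complement and whose matches may overlap those of the first search, was present in 11 of 38 (28.9%), against 9.38% of all genes. The 6 stretches below run from 160 to 81 bases before the start, on the gene's own strand. They were chosen from the 8 genes that differ most in A549 oncospheres, with IFIT1 and BST2 added. Of those 8, OAS2, IRF7 and USP18 had no window. MX1 was left out because its starts lie far apart. The matches of MX1 are at offsets of -196 and 11 bases from their starts, outside the stretch shown. XAF1 is shown as a gene whose windows hold no match. Capitals mark each match to that core on either strand, and adjoining or overlapping matches run together.
IFI27, chr14:94110576-94110655, plus strand: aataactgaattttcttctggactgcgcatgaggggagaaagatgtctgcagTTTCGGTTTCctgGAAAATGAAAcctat
IFI6, chr1:27672273-27672352, minus strand: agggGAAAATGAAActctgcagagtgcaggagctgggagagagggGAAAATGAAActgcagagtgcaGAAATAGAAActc
ISG15, chr1:1013337-1013416, plus strand: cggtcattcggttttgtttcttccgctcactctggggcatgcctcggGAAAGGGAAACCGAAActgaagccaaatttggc
IFIT1, chr10:89392463-89392542, plus strand: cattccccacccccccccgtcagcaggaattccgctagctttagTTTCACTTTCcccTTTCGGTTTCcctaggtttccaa
BST2, chr19:17405711-17405790, minus strand: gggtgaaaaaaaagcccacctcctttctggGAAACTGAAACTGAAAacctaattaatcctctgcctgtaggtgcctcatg
XAF1, chr17:6755287-6755366, plus strand: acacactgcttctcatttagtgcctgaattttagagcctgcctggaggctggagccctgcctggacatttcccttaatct
IFI6 holds 3 matches and the other 4 genes with a match hold 2 each. A match is a description of letters and not of binding.

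Expression is given as TPM, the share of a library that a transcript takes, which is scaled for transcript length and so allows levels of different genes to be set side by side. The median of the 44 genes was low in normal culture: 3.59 and 4.63 TPM in the wild-type A549 libraries, 3.46 and 4.05 TPM in those labelled knockout, and 7.6 to 8.69 TPM over the 4 H2023 libraries. In A549 oncospheres it was 68.7 and 27.0 TPM in the wild-type replicates 1 and 2, and 12.7 and 7.12 TPM with the knockout label. In H2023 oncospheres it was 8.96 and 14.3 TPM in wild type, and 11.8 and 19.9 TPM with the knockout label. The wild-type A549 oncospheres therefore held the highest levels of the series, and 40 of the 44 genes had a mean of at least 10 TPM there, against 11 in wild-type A549 in normal culture. Every gene was above 0 in each of the 4 A549 oncosphere libraries.

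**Figure D1:**
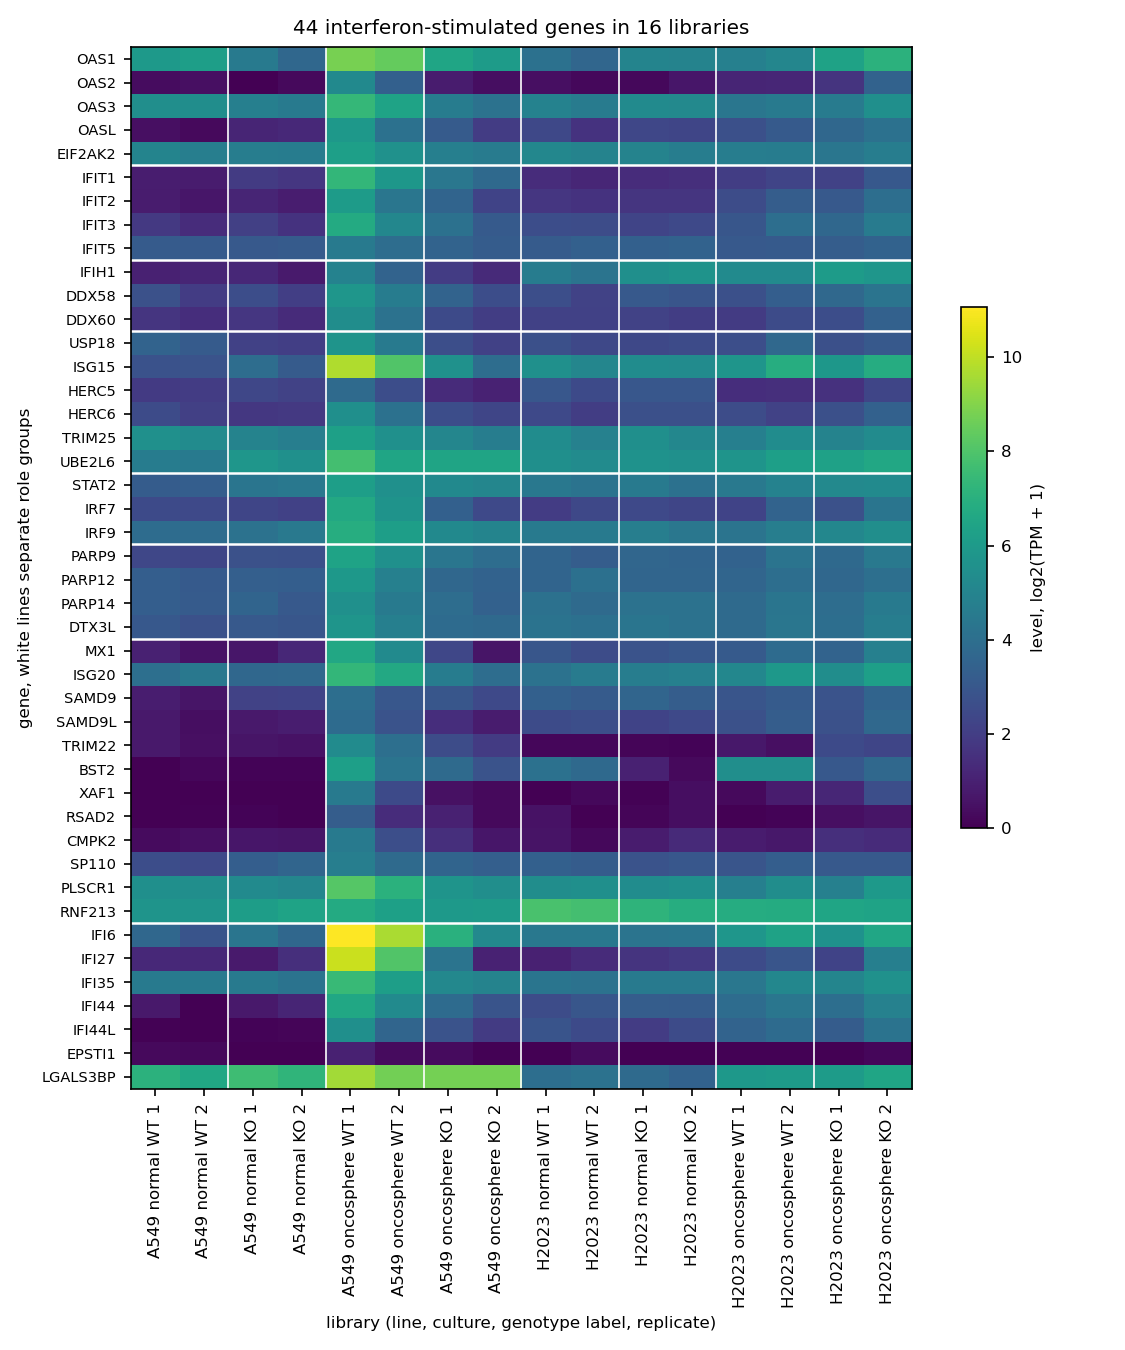
Level of each of the 44 genes (rows, in role groups separated by white lines) in each of the 16 libraries (columns), as log2(TPM + 1). The 2 wild-type A549 oncosphere columns are the brightest for most genes, the left one (replicate 1, median 68.7 TPM) more than the right one (replicate 2, median 27.0 TPM).

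Facts of the libraries that bear on these values come next. ZC3H12A mRNA was lower with the knockout label in A549 normal culture (16.9 and 19.93 against 30.72 and 34.88 TPM). It was higher with that label in A549 oncospheres (55.6 and 60.17 against 48.48 and 49.17 TPM), in H2023 normal culture (41.48 and 41.54 against 26.78 and 29.85 TPM) and in H2023 oncospheres (69.18 and 94.61 against 26.41 and 32.54 TPM). In 3 of 4 comparisons the mRNA thus goes against the label, and because an edit can leave the mRNA in place, its level does not show whether the protein was lost. The groups are called "labelled knockout" for that reason. The share of TPM in mitochondrial genes was 10.3% to 18.7% in normal culture and 19.5% to 25.6% in oncospheres. Of the markers of epithelial cells (KRT8, KRT18, EPCAM and CDH1) all 4 were measured, with a sum of 1450 to 10600 TPM. Of the markers of distal lung (NKX2-1, SFTPC, SFTPB and NAPSA) only NAPSA was in the tables, at 1.02 to 6.03 TPM.

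The replicates of an oncosphere group differed in these genes more than in others. Between the wild-type A549 oncosphere libraries, all 44 genes were higher in replicate 1, by a median of 1.18 on the log2(TPM + 1) scale, while the median of the 14504 genes with a mean of at least 1 TPM was 0.04. The gap exceeded 1 on that scale (about 2-fold) for 28 of the 44 genes, against 1.49% of those 14504. In A549 oncospheres labelled knockout, 43 of 44 were higher in replicate 1, by a median of 0.50. H2023 oncospheres went the other way, with 36 of 44 genes higher in replicate 2 in wild type (median of replicate 1 minus replicate 2, -0.42) and 40 of 44 with the knockout label (-0.69). In the 4 groups of normal culture that median lay between 0.01 and 0.17. The replicates are numbered by the labels and carry no order.

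**Figure D2:**
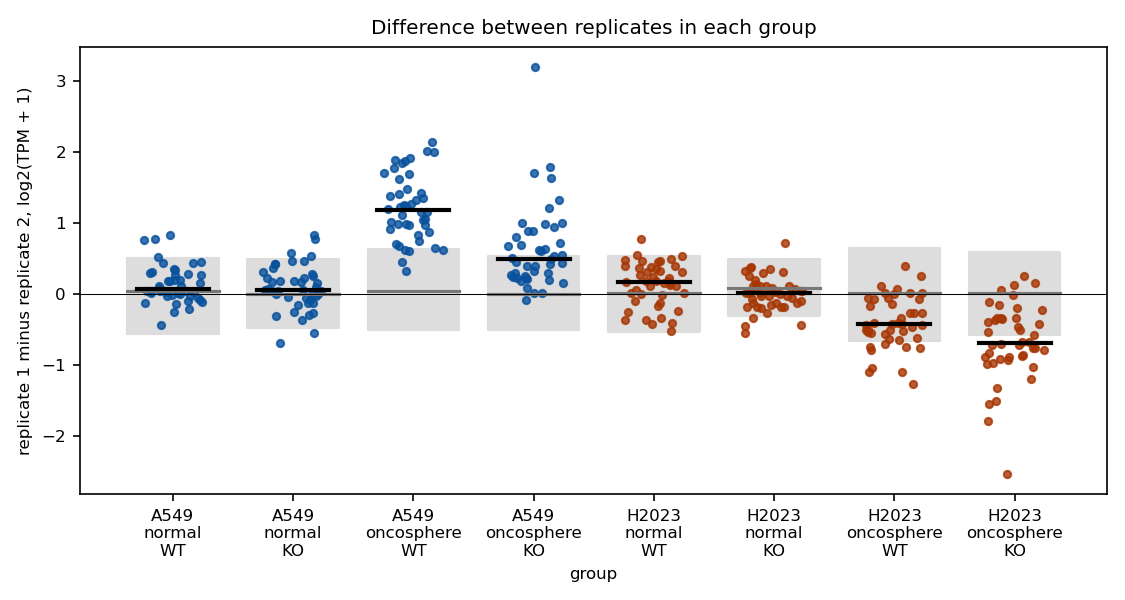
Replicate 1 minus replicate 2 on the log2(TPM + 1) scale (vertical axis) in each of the 8 groups, 1 point per gene. Black bars are medians of the 44 genes, grey bars the median and grey boxes the 5th to 95th percentile of all genes with a mean of at least 1 TPM. The points leave the boxes mainly in the oncosphere groups, upwards in A549 (median 1.18 in wild type) and downwards in H2023 (median -0.69 with the knockout label).

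Wild-type A549 cells had far more of these transcripts as oncospheres than in normal culture. By limma on log2(TPM + 1), with adjustment over all genes, 42 of 44 rose and 0 fell, where 19.0% of all genes rose and 21.6% fell. The median of the 44 was 2.76, a 6.76-fold change, and that of the 14472 genes with a mean of at least 1 TPM was -0.07. TRIM25, a ubiquitin ligase that activates RNA sensors (0.46 ± 0.24 SE, adjusted p = 0.162), and EPSTI1 (0.41 ± 0.21, adjusted p = 0.157, at most 1.04 TPM in any library) did not pass. Both oncosphere libraries lay above both normal-culture ones for 43 of 44 genes, as for 33.7% of all genes. Each wild-type oncosphere replicate held this by itself: replicate 1 lay above both normal-culture libraries for 44 genes (median 3.23 over their mean) and replicate 2 for 43 (median 2.28). Other values moved with culture in wild-type A549: the share of mitochondrial TPM, the immune sum (2 of 7 markers measured), from 8.22 to 13.1 TPM in normal culture and 33.6 to 66.2 TPM in oncospheres, and the endothelial marker PECAM1, from 0.04 to 0.1 TPM and 1.77 to 2.76 TPM. Their part in the result was not tested.

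With the knockout label the same change of culture was smaller. Here 12 of 44 genes rose and 0 fell, where 10.9% of all genes rose and 9.87% fell, and the median of the 44 was 0.67. At an unadjusted p under 0.05, 16 were higher and 1 lower, as were 17.1% and 17.0% of all genes. The 12 were OAS1, IFIT1, IFIT3, IFI6, IFI44, IFI44L, STAT2, IRF9, PARP9, TRIM22, BST2 and LGALS3BP, and all 12 were also among the 42 of the wild type. For each of the 44 genes the log2 change with culture was larger in wild type. With the knockout label the epithelial sum also moved with culture, from 1450 to 2520 TPM in normal culture and 4990 to 7190 TPM in oncospheres, and its part was not tested. Leaving out 1 of the libraries labelled knockout, which keeps 1 library in a group, lowered the count of 12. Those fits also called fewer of all genes.

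**Figure D3:**
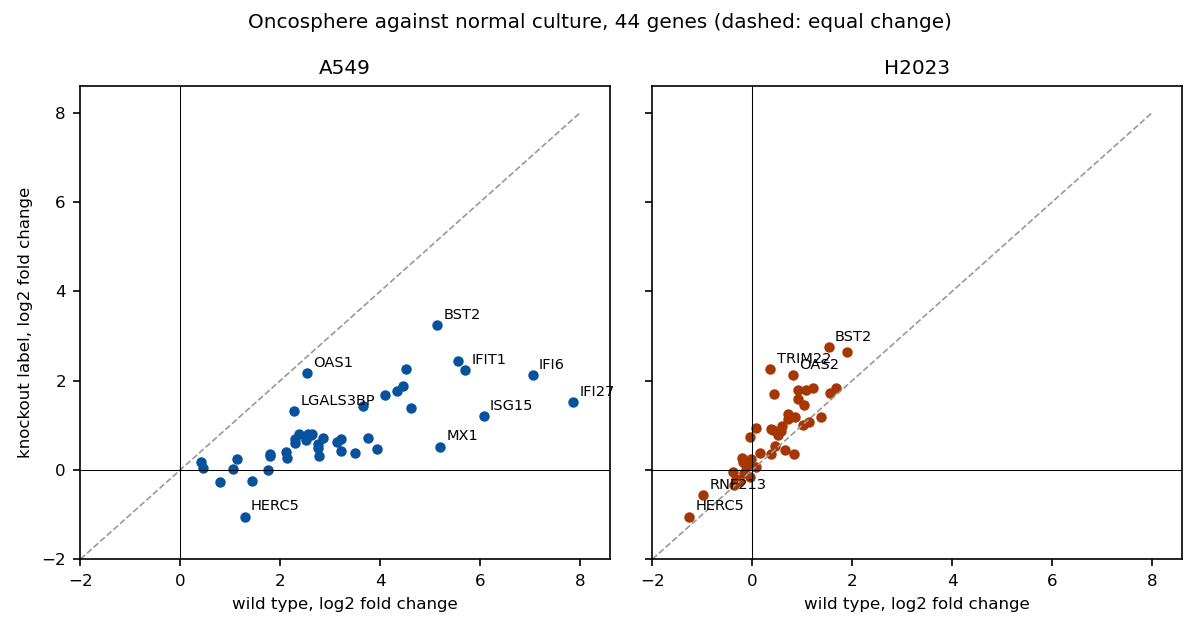
Log2 fold change of oncosphere over normal culture on the log2(TPM + 1) scale for the 44 genes, in wild type (horizontal axis) against the libraries labelled knockout (vertical axis), for A549 (left) and H2023 (right). In A549 all 44 points lie below the dashed line of equal change, and in H2023 8 of 44 do.

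A549 oncospheres labelled knockout held less of these transcripts than wild-type oncospheres. The test called 27 of 44 genes lower and 0 higher, where 7.2% of all genes were called lower and 6.04% higher. The median of the 44 was -2.19, a 4.57-fold difference, against 0.04 for the 14546 genes with a mean of at least 1 TPM. All 44 log2 differences were negative, from -6.47 for IFI27 to -0.37 for LGALS3BP, and 40 genes were lower at an unadjusted p under 0.05, as were 14.9% of all genes. Both libraries labelled knockout lay below both wild-type libraries for 43 of 44 genes, as they did for 27.8% of all genes, with LGALS3BP the exception. The authors' deposited table called 38 of 44 lower and 0 higher, where it called 11.4% of its genes lower and 9.29% higher.

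The size of the median difference, not its sign, rested on which wild-type replicate was used. Against the mean of the libraries labelled knockout, wild-type replicate 1 was higher by a median of 2.82 and replicate 2 by a median of 1.48. Replicate 2 by itself lay above both libraries labelled knockout for 43 of 44 genes, and below both for LGALS3BP. Fits over the remaining 3 libraries, with 1 residual degree of freedom, called almost none of all genes, so they cannot show whether the 44 differ. When the spread was taken from all 8 A549 libraries, a fit added after seeing the data, 36 of the 44 genes were called lower. That fit called 19.5% of all genes in either direction. Without 1 library its count changed with the library left out, and it called fewer of all genes too.

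**Figure D4:**
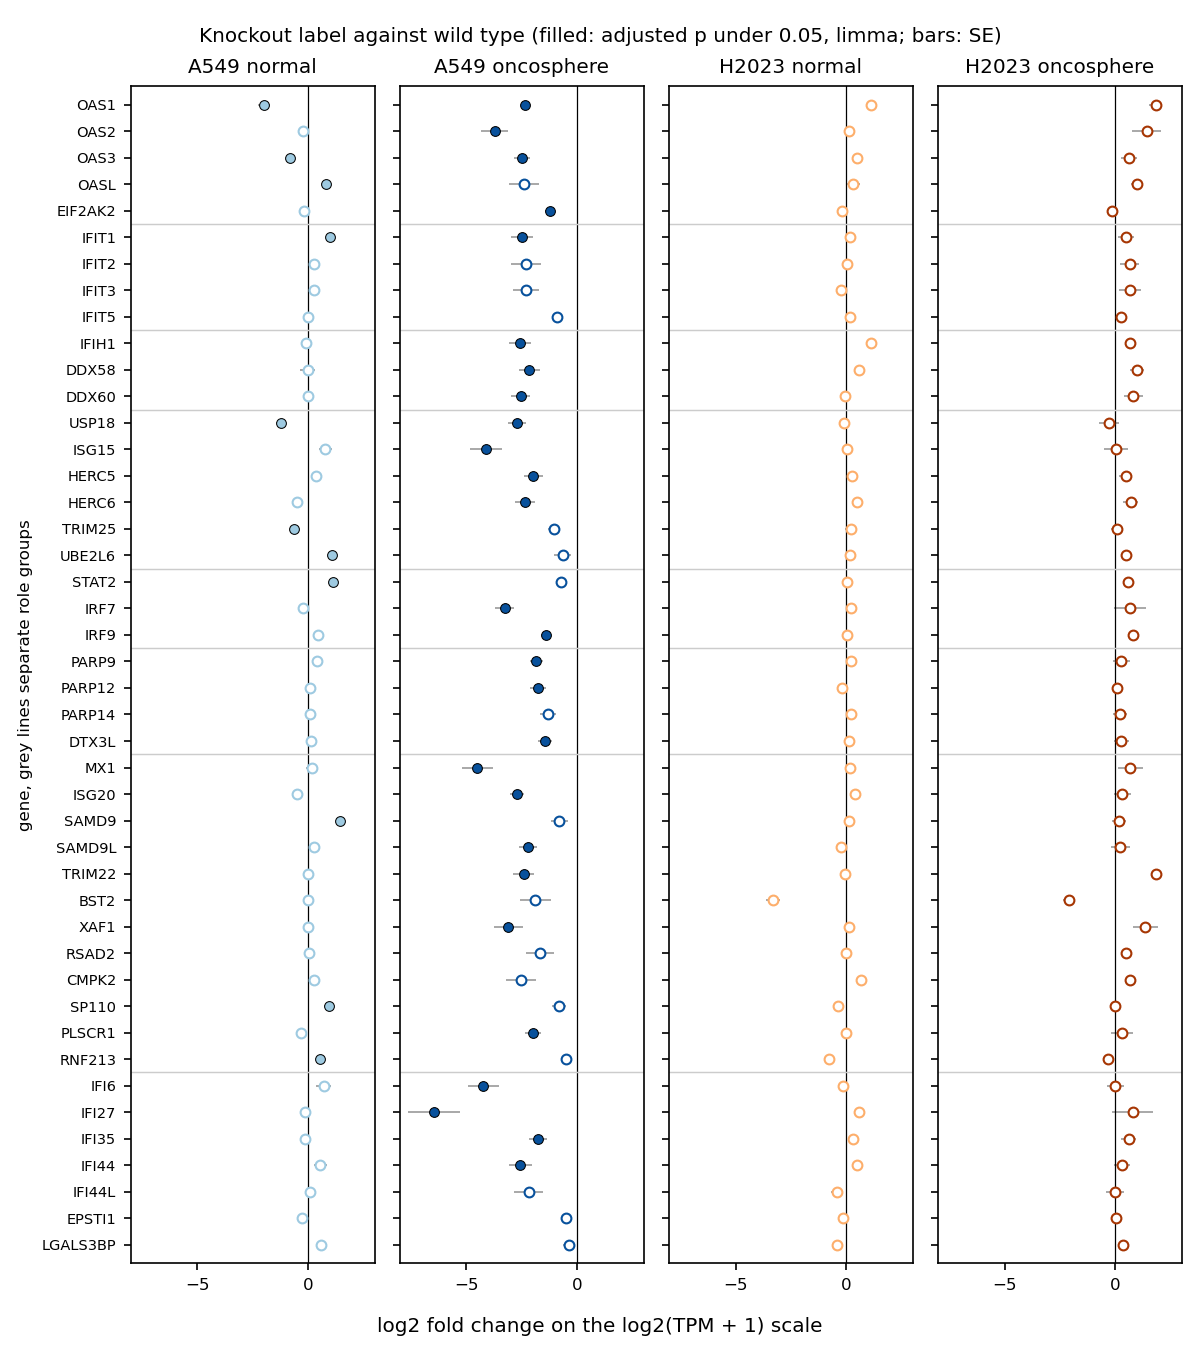
Log2 fold change of the knockout label over wild type on the log2(TPM + 1) scale (horizontal axis) for the 44 genes (rows, in role groups) in the 4 comparisons, with bars of 1 SE. Filled points passed limma's adjusted threshold of 0.05: 11 in A549 normal culture, 27 in A549 oncospheres and 0 in either H2023 comparison.

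The genes of the first role group make or sense double-stranded RNA signals. OAS1, OAS2 and OAS3 synthesise 2-5A, which activates the nuclease RNase L, OASL is their relative without that activity, and EIF2AK2 encodes the kinase PKR, which stops translation. In A549 oncospheres 4 of these 5 were called lower with the knockout label, with OASL at -2.41 ± 0.67 (SE, adjusted p = 0.0777). OAS1, the most abundant of them, measured 439.99 and 349.27 TPM in wild-type oncospheres and 89.62 and 65.78 TPM with the knockout label (-2.34 ± 0.19, adjusted p = 0.00415). The groups did not overlap, and the OAS1 replicates were closer to each other than those of most genes on the list. OAS2 measured 37.08 and 9.61 TPM against 0.77 and 0.32 TPM (-3.72 ± 0.61, adjusted p = 0.0203). With the knockout label OAS2 was thus near the 0.28 and 0.36 TPM of wild-type cells in normal culture.

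The IFIT proteins bind viral RNA ends and block their translation, and the helicases IFIH1 (MDA5) and DDX58 (RIG-I) sense double-stranded RNA in the cytoplasm, with DDX60 as a related helicase. IFIT1 measured 157.55 and 55.96 TPM in wild-type A549 oncospheres and 19.79 and 12.55 TPM with the knockout label (-2.50 ± 0.50, adjusted p = 0.0344). It was the only 1 of the 4 IFIT genes to pass, and IFIT2, IFIT3 and IFIT5 stood at -2.32, -2.30 and -0.90. All 3 helicase genes fell. IFIH1 measured 29.22 and 10.63 TPM against 2.94 and 1.47 TPM (-2.59 ± 0.50, adjusted p = 0.0311). In normal culture wild-type cells held 1.03 and 1.24 TPM of IFIH1, so the knockout-label oncospheres were slightly above that and far below the wild-type oncospheres.

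ISG15 is a ubiquitin-like protein that UBE2L6 and HERC5 help to attach to others and USP18 removes. USP18 also holds back the interferon receptor. Of the 6 genes grouped here, ISG15, USP18, HERC5 and HERC6 fell in A549 oncospheres. ISG15 measured 843.23 and 261.18 TPM in wild type and 47.04 and 14.57 TPM with the knockout label (-4.10 ± 0.72, adjusted p = 0.0245). USP18 measured 51.11 and 22.51 TPM against 5.34 and 3.46 TPM (-2.72 ± 0.41, adjusted p = 0.0166), with reads that a near-identical copy in the genome could share. Both genes kept the groups well apart although replicate 1 was well above replicate 2 in wild type. TRIM25 (-1.04, adjusted p = 0.0702) and UBE2L6 (-0.66, adjusted p = 0.322) did not pass.

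The pathway's own transcription factors were part of the pattern. IRF7, which drives interferon genes, measured 102.23 and 50.83 TPM in wild-type A549 oncospheres and 9.58 and 4.47 TPM with the knockout label (-3.27 ± 0.44, adjusted p = 0.0122). IRF9, the DNA-binding part of ISGF3, measured 116.92 and 72.61 TPM against 37.5 and 30.92 TPM (-1.41 ± 0.24, adjusted p = 0.0233). STAT2, with 71.46 and 46.21 against 36.84 and 32.49 TPM, did not pass (-0.72 ± 0.22, adjusted p = 0.0962). IRF7 thus differed most of the 3. With the knockout label, the log2 change of oncospheres over normal culture was similar for all 3. It was 0.71 ± 0.37 for IRF7 (adjusted p = 0.225 by limma), 0.80 ± 0.22 for IRF9 and 0.79 ± 0.19 for STAT2. PARP9, an ADP-ribosyltransferase that works with the ubiquitin ligase DTX3L, measured 85.15 and 46.02 against 19.44 and 14.55 TPM (-1.84 ± 0.31, adjusted p = 0.0223). PARP12 and DTX3L also fell, and PARP14 was at -1.33 (adjusted p = 0.079). PARP9 and DTX3L overlap in exons on opposite strands, and the strand setting of the counting is not given in the sources used here.

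Among 12 antiviral effectors, 6 fell: MX1, ISG20, SAMD9L, TRIM22, XAF1 and PLSCR1. MX1, a GTPase that traps viral capsids and polymerases, measured 99.35 and 38.46 TPM in wild-type A549 oncospheres and 4.05 and 0.54 TPM with the knockout label (-4.50 ± 0.68, adjusted p = 0.017). XAF1, a pro-apoptotic partner of XIAP, measured 21.57 and 4.62 TPM against 0.41 and 0.22 TPM (-3.10 ± 0.64, adjusted p = 0.0375). The MX1 and XAF1 groups did not overlap, and the knockout-label values of both were below 5 TPM. BST2 (tetherin), which holds budding viruses at the cell surface, measured 74.91 and 17.98 TPM against 13.35 and 6.19 TPM and did not pass (-1.90 ± 0.70, adjusted p = 0.141). RNF213, a large ubiquitin ligase and the most abundant of the 12 over all libraries, measured 105.81 and 77.44 TPM against 61.61 and 64.98 TPM and did not pass either (-0.51 ± 0.17, adjusted p = 0.11). Also at negative values short of the threshold were SAMD9, RSAD2, CMPK2 and SP110.

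The group of IFI and other induced genes held the largest single difference, that of IFI27, with a group median of -2.18 and 4 of 7 genes called lower. IFI27, a mitochondrial and nuclear-membrane protein often used to read out interferon, measured 1161.92 and 263.7 TPM in wild-type A549 oncospheres and 17.95 and 1.07 TPM with the knockout label (-6.47 ± 1.18, adjusted p = 0.0269). In normal culture it was at 1.4 and 1.36 TPM in wild type and 0.72 and 1.78 TPM with the knockout label. IFI27 thus went from near 1 TPM to 263.7 TPM or more in wild-type oncospheres, and its knockout-label oncospheres spanned the distance between 1 and 18 TPM. IFI6, a relative that sits in the mitochondrion and the endoplasmic reticulum, measured 2125.6 and 791.71 TPM against 127.46 and 36.22 TPM (-4.23 ± 0.71, adjusted p = 0.0214). IFI6 was the most abundant of the 44 in both wild-type oncosphere libraries, with 12.09 and 6.38 TPM in normal culture. IFI35 and IFI44 also fell, and IFI44L and EPSTI1 did not pass. LGALS3BP, a secreted glycoprotein, was the 1 gene whose groups overlapped, with 742.81 and 417.95 TPM against 431.65 and 429.84 TPM (-0.37 ± 0.27, adjusted p = 0.419).

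**Figure D5:**
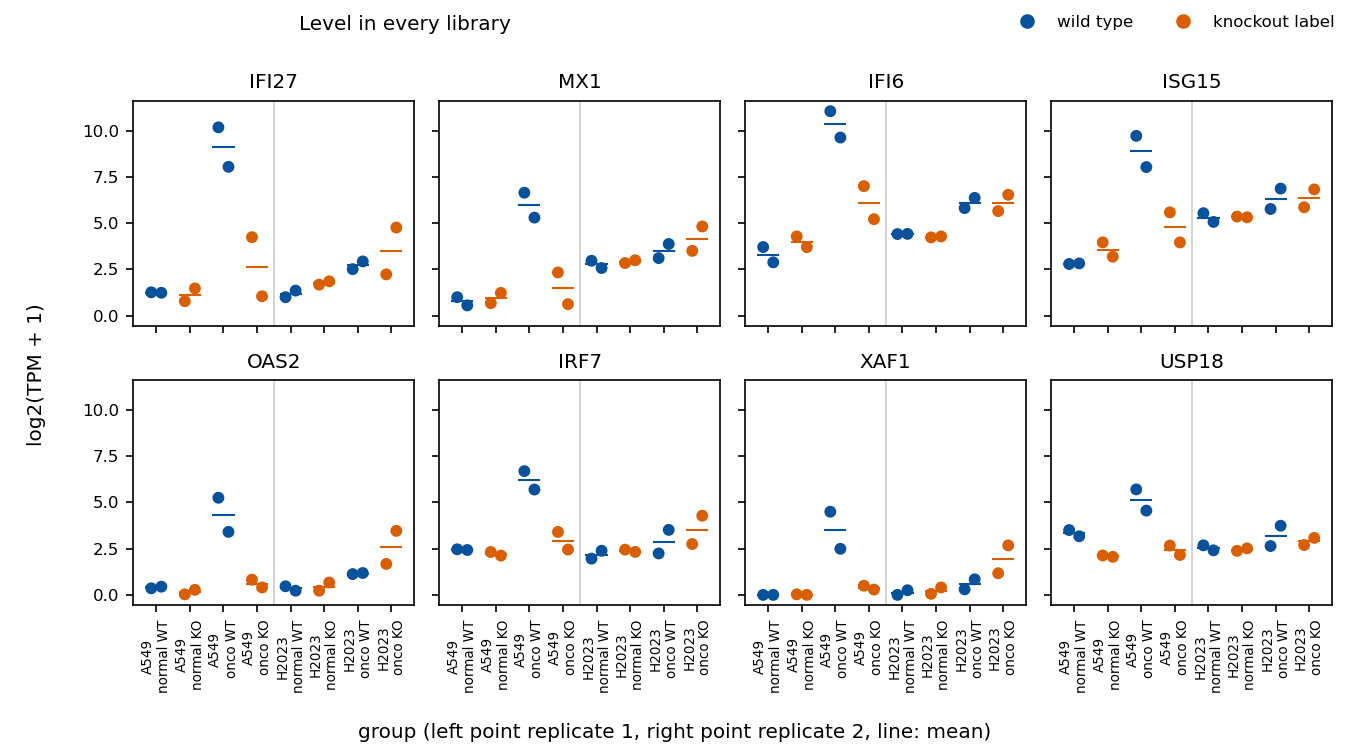
Level in every library, log2(TPM + 1), of the 8 genes with the largest log2 difference in A549 oncospheres, with wild type in blue, the knockout label in orange and a line at each group's mean. In A549 oncospheres both wild-type points of each gene lie above both orange points, as for IFI27 (1161.92 and 263.7 TPM against 17.95 and 1.07 TPM), and in H2023 the colours lie close together or reverse.

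Values of other cell types were read beside this result. Of 7 immune markers, CD14 and LYZ were in the tables, and the others were not analysed here. LYZ (lysozyme) moved with the 44 genes: 18.56 and 6.81 TPM in wild-type A549 oncospheres, 0.28 and 0 TPM with the knockout label, and at most 0.05 TPM in A549 normal culture. CD14 measured 47.61 and 26.79 TPM against 34.34 and 28.97 TPM, so its groups overlapped. The immune sum was 33.6 to 66.2 TPM in wild-type and 29.0 to 34.6 TPM in knockout-label oncospheres. The fibroblast sum (3 of 4 markers measured) was 5.5 to 5.82 and 1.58 to 3.48 TPM, and the endothelial sum (1 of 3) was 1.77 to 2.76 and 0.63 to 0.81 TPM. The epithelial sums, carried by KRT8 and KRT18, overlapped, at 5180 to 6470 TPM in wild type and 4990 to 7190 TPM with the knockout label. EPCAM among them measured 9.4 and 7.94 TPM in wild type and 0.82 and 1.03 TPM with the label, so it differed in the direction of the 44 genes. CDH1 went the other way, with 73.1 and 62.42 TPM in wild type and 84.49 and 79.02 TPM with the label. The part of any of these in the result was not tested.

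Whether the knockout label acted differently in the 2 cultures of A549 was tested as an interaction over the 8 libraries of the line, which shares its libraries with the comparisons above. The difference was called for 21 of 44 genes, all lower in oncospheres, where 3.13% of all genes were called lower and 3.52% higher. The median was -2.17, against 0.09 for the 14823 genes with a mean of at least 1 TPM, and all 44 values were negative. At an unadjusted p under 0.05, 40 genes were lower, as were 10.7% of all genes. The 21 included all 3 transcription factors, with STAT2 at -1.82 ± 0.27 (adjusted p = 0.0153), and 8 of 12 effectors. The count depended on single libraries, in fits that keep 1 library in a group and also called fewer of all genes. The difference of the fold changes in the authors' deposited table called 32 lower and 0 higher, where it called 4.1% of its genes lower.

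In normal culture the knockout label moved A549 cells less and in both directions. The test called 7 of 44 genes higher and 4 lower, where 4.53% of all genes were called higher and 6.28% lower, with a median of 0.09 for the 44 and -0.06 for the 14090 genes with a mean of at least 1 TPM. The genes higher were SAMD9, STAT2, UBE2L6, IFIT1, SP110, OASL and RNF213, and those lower were OAS1, USP18, OAS3 and TRIM25. OAS1 measured 61.31 and 73.1 TPM in wild type and 21.97 and 11.92 TPM with the knockout label (-1.98 ± 0.28, adjusted p = 0.0206). USP18 measured 10.36 and 7.99 TPM against 3.38 and 3.16 TPM (-1.24 ± 0.20, adjusted p = 0.0266). The groups of OAS1 and USP18 stood clear of each other, and both genes were lower with the label in either culture. SAMD9, an inhibitor of poxvirus growth, went the other way, with 0.86 and 0.54 TPM against 3.58 and 3.71 TPM (1.46). STAT2 measured 8.25 and 8.91 TPM against 18.68 and 20.61 TPM (1.11 ± 0.14, adjusted p = 0.0163). For these higher genes, too, the groups did not overlap.

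The authors' deposited table called 10 higher and 4 lower of the 38 genes that have an adjusted p there, where it called 11.2% of its genes higher and 10.9% lower, and it held all 11 calls of limma. Each 3-library fit called 0 genes, with 8 to 10 higher and 5 to 6 lower at an unadjusted p under 0.05, and the fit that takes the spread from all 8 A549 libraries called 4. The epithelial sum moved with the label in this comparison, from 7410 to 7620 TPM in wild type and 1450 to 2520 TPM with the knockout label, and its part was not tested. Most of the genes that led in oncospheres were low in both genotypes here. MX1 was at 1.0 and 0.47 TPM in wild type and 0.6 and 1.35 TPM with the knockout label, and XAF1 was listed at 0 in 3 of the 4 libraries.

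In H2023, limma called 0 of 44 genes with the knockout label in normal culture, and 0 of all 18227 genes (0.0%), the smallest adjusted p being 0.111 on the list (BST2) and 0.102 overall. At an unadjusted p under 0.05, 6 were higher and 2 lower, as were 8.75% and 9.43% of all genes, and the median was 0.10. The authors' deposited table called 3 higher and 2 lower of 39, where it called 3.84% of its genes higher and 6.97% lower. BST2 measured 16.57 and 12.59 TPM in wild type and 1.01 and 0.22 TPM with the knockout label (-3.30 ± 0.32). IFIH1 measured 24.0 and 17.9 TPM against 43.77 and 49.55 TPM (1.13 ± 0.17, adjusted p = 0.137). OAS1 measured 16.26 and 11.38 TPM against 30.9 and 29.69 TPM (1.10 ± 0.19, adjusted p = 0.153). RNF213 measured 234.96 and 211.61 TPM against 143.35 and 117.28 TPM (-0.78 ± 0.13, adjusted p = 0.149), with exons that overlap an antisense gene. The groups of these 4 genes, which were picked for their large differences, did not overlap. All 4 passed when genes under a mean of 1 TPM were left out, as did 3.33% of the genes kept. All 4 also passed when the libraries were centred on their median gene, as did 1.77% of all genes. BST2, IFIH1 and RNF213 passed with the spread of all 8 H2023 libraries, as did 0.806% of all genes. In the authors' deposited table BST2 stood at -5.59 (SE 0.62, adjusted p = 5.13e-17).

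H2023 oncospheres gave 0 calls of 44 as well, and 0 of all genes (0.0%), with 9 genes higher and 2 lower at an unadjusted p under 0.05, as were 9.13% and 6.39% of all genes. The smallest adjusted p on the list was 0.208 (TRIM22). The median was 0.47, against 0.08 for the 14368 genes with a mean of at least 1 TPM, and 38 of 44 values were positive. Both libraries labelled knockout lay above both wild-type ones for 18 of 44 genes, as for 28.6% of all genes, and below them for 2, as for 18.9%. The authors' deposited table called 3 higher and 2 lower of 43, where it called 2.22% higher and 2.85% lower. TRIM22, an antiviral ubiquitin ligase, measured 0.62 and 0.35 TPM in wild type and 4.54 and 3.96 TPM with the knockout label (1.83 ± 0.17). OAS1 measured 26.89 and 32.69 TPM against 81.4 and 138.31 TPM (1.81 ± 0.30, adjusted p = 0.231). BST2 measured 43.7 and 43.27 TPM against 7.32 and 12.36 TPM (-2.08 ± 0.27, adjusted p = 0.212). OAS2 measured 1.18 and 1.27 TPM against 2.19 and 10.01 TPM (1.41 ± 0.66, adjusted p = 0.396). The groups of these 4, picked for their large differences, did not overlap. TRIM22, OAS1 and BST2 passed with the spread of all 8 H2023 libraries, as did 1.54% of all genes. The knockout-label OAS2 replicates lay far apart. The epithelial sum moved with the label in both H2023 cultures, from 5630 to 6920 TPM in wild type and 9690 to 10600 TPM with the label in normal culture, and from 2980 to 3040 TPM and 6050 to 6290 TPM in oncospheres. The immune sum was 0.71 to 1.18 TPM in wild-type and 1.82 to 4.27 TPM in knockout-label oncospheres. Their part in these values was not tested.

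Of the 8 genes with the largest differences in A549 oncospheres, IFI27, MX1, IFI6, ISG15, IRF7 and USP18 had overlapping groups in H2023 oncospheres. OAS2 (above) and XAF1, with 0.23 and 0.79 TPM in wild type and 1.25 and 5.39 TPM with the knockout label (1.35 ± 0.58, adjusted p = 0.372 by limma), did not overlap and were higher with the label. ISG15 measured 53.5 and 116.12 TPM in wild type and 57.11 and 112.53 TPM with the knockout label. IFI6 measured 55.32 and 81.65 TPM against 49.36 and 91.93 TPM. IFI27 measured 4.72 and 6.64 TPM against 3.7 and 26.22 TPM. For ISG15, IFI6 and IFI27, replicate 2 was the higher of each pair. The interaction of label and culture was called for 0 of 44 genes in H2023 by limma (0.0% of all genes), with 5 higher and 0 lower at an unadjusted p under 0.05 (4.55% and 2.55% of all genes), and for 1 (higher) by the difference of the fold changes in the authors' deposited table, where 0.335% of its genes were.

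The change of culture was read in H2023 in the same way, and its difference from A549 was not tested. In wild type 6 of 44 genes rose and 2 fell, where 3.96% of all genes rose and 17.4% fell. The 6 were LGALS3BP, IFI6, BST2, IFI44, OAS1 and IFIH1, and HERC5 and RNF213 fell. With the knockout label 16 rose and 2 fell, where 7.68% rose and 19.2% fell, with LGALS3BP (2.63), BST2 (2.75), TRIM22 (2.26) and OAS2 (2.12) at the top and the same 2 genes falling. HERC5 and RNF213 thus fell in H2023 oncospheres of both genotypes and rose in wild-type A549 oncospheres. Between genotypes 5 of the 6 and 16 genes that rose were shared. The medians were 0.45 and 0.89, against -0.24 and -0.18 for all genes with a mean of at least 1 TPM. Because the median gene fell in H2023, centring each library on it changed the split over all genes from 721 higher and 3180 lower to 1455 and 1260 in wild type, and from 1400 and 3495 to 2145 and 2322 with the knockout label. Leaving out 1 library, which keeps 1 in a group, moved the counts of both genotypes, and those fits also called fewer of all genes. On the centred scale 12 of 44 rose and 1 fell in wild type, and 20 rose and 1 fell with the knockout label.

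Whether the label acted differently in the 2 lines was tested after seeing the data, as an interaction over the 8 libraries of a culture, H2023 minus A549. In oncospheres 22 of 44 genes were called higher and 0 lower, where 5.83% of all genes were called higher and 4.02% lower. The median was 2.43 and 43 of 44 values were positive, with BST2 at -0.18 the exception. OAS1 had the smallest adjusted p (4.14 ± 0.38, adjusted p = 0.00211), and TRIM22 stood at 4.25 ± 0.58 (adjusted p = 0.00649). For both genes the level with the knockout label was lower in A549 and higher in H2023 than in wild type. The count moved with the library left out, in fits that keep 1 library in a group and also called fewer of all genes. In normal culture 4 were called higher and 6 lower, where 6.89% and 5.4% of all genes were, led by BST2 (-3.29 ± 0.36), OAS1 (3.08 ± 0.38) and RNF213 (-1.34 ± 0.18). Here too the fits without 1 library gave lower counts for the 44 and fewer calls over all genes.

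Other genes of the pathway were read from lists of 63 genes, of which 54 were measured. Of 9 ligands, IFNE and IFNA1 were measured. IFNE, an epithelial type I interferon, measured 1.75 and 2.68 TPM in wild-type A549 and 6.07 and 7.51 TPM with the knockout label in normal culture (1.29 ± 0.24, adjusted p = 0.0347), and 3.25 and 3.23 TPM against 6.68 and 8.13 TPM in oncospheres (0.98 ± 0.19, adjusted p = 0.0324). IFNE thus rose with the label in both A549 cultures, while 27 of the 44 genes fell with it in oncospheres. IFNA1, one of a family of near-identical genes between which reads can be split, was listed at 0 to 2.77 TPM in A549 and at 0 in all H2023 libraries. Of 9 receptors and kinases, 1 was called in each A549 comparison of the label. IFNAR2 fell in normal culture (18.38 and 17.08 against 8.27 and 8.98 TPM). IFNGR1 rose in oncospheres (67.92 and 61.02 against 109.42 and 124.9 TPM). IFNAR2 was lower with the label in A549 oncospheres too, short of the threshold (-0.57 ± 0.16, adjusted p = 0.0777 by limma). There both libraries labelled knockout lay below both wild-type ones. The interaction of label and culture was not called for IFNAR2 (0.39 ± 0.2, adjusted p = 0.28 by limma). Its part in the result for the 44 genes was not tested.

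Induced genes outside the 44 rose with culture in wild-type A549, and fewer of them differed with the label. Of the 54 pathway genes 29 rose and 3 fell with culture in wild-type A549, where 19.0% of all genes rose and 21.6% fell. Among the 29 were 19 of 21 other induced genes. In A549 labelled knockout, 9 of those 21 rose with culture and 0 fell, where 10.9% of all genes rose and 9.87% fell. With the knockout label in oncospheres, 2 of the 54 were higher and 8 lower, where 6.04% of all genes were higher and 7.2% lower. Of the 21 other induced genes 6 were lower and 0 higher, with a median of -0.81, and IFITM2 (-0.22), IFITM3 (-0.30) and LGALS9 (0.12) were among those that did not pass. IFITM1, which blocks viral entry, measured 394.78 and 136.04 TPM in wild-type oncospheres, 36.99 and 22.1 TPM with the knockout label (-2.97 ± 0.53, adjusted p = 0.0246) and 0.36 and 0.38 TPM in wild-type normal culture. MX2 (-1.93 ± 0.33, adjusted p = 0.0237) and TRIM14 (-1.64 ± 0.32, adjusted p = 0.0331) fell with the label as well. IFITM1 was thus high only in oncospheres among the A549 groups, and higher in wild type, as were IFI6 and ISG15. In normal culture 3 of the 54 were higher in A549 with the label, IFI16 (2.10 ± 0.20, adjusted p = 0.0102), APOL1 (1.49 ± 0.32, adjusted p = 0.0477) and IFNE, and 5 lower, where 4.53% and 6.28% of all genes were, so these counts are near the background. In H2023, 0 of 54 were called with the label in either culture by limma, where 0.0% of all genes were.

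The genes of A549 oncospheres were also read by the presence of the response element core. Among the 25 genes with that core in a window, 16 were called lower with the knockout label and the median was -2.01. Among the 13 without it, 7 were called lower and the median was -1.78. XAF1, whose stretch is shown above without a match, is one of the 7. With culture in wild-type A549, 24 of 25 and 12 of 13 rose, with medians of 2.76 and 2.56. These are descriptions without a test.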

How the data were processed

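Total RNA was turned into stranded TruSeq mRNA libraries, per the labels' protocols. The submitters' processing notes name HISAT2, StringTie and GRCh38, with no role given. The authors deposited 4 tables, 1 per line and culture, each with TPM for 4 libraries. Each deposited table also holds a mean normalized count (a signal), a log2 fold change, its error and statistic (scores) and p-values, under DESeq2's column names, per the file headers. In every deposited row the sign of that statistic is opposite to the sign of the fold change, and directions were read from the latter. The line of a library was read from its table's name, and culture, genotype and replicate from its column's name. Dropping repeated identifiers took each table from 18361 rows to 18227 genes. TPM keeps no record of depth, so depth is unknown and no floor or interval was set. Each library summed to 991838 to 998125 TPM.

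Values were tested as log2(TPM + 1) with limma 3.58.1 (R 4.3.3) as two-sided tests that let the variance follow the mean, with Benjamini-Hochberg adjustment over all genes, no filter on low values and a threshold of 0.05. Fold changes on this scale understate those of low genes. Comparisons of the knockout label used the 4 libraries of a table, and the others used 8. The test was checked on simulated data. Values per library are printed for the 8 genes that differ most in A549 oncospheres, the 4 that differ most in each other comparison of the label, the most abundant gene of each role group, and a few (LGALS3BP, STAT2 and BST2 in A549, ISG15, IFI6 and IFI27 in H2023, and the pathway's ligands and receptors) chosen after their values were seen. The genes and lists were chosen with earlier results of these data known. Alternatives were another pseudocount (0.1), a filter (mean of at least 1 TPM), centring on the median gene, a replicate block, other sets of libraries, the authors' values and leaving out each library. Gene overlaps came from GENCODE: exons of IFIT2, PARP9, DTX3L, RSAD2, CMPK2, TRIM25, EIF2AK2, SP110 and RNF213 overlap a gene on the other strand and those of IRF9 and TRIM25 one on the same strand, so their reads may be shared. Some pathway and marker results are not reported here.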

Additional observations from a re-analysis of the deposited data

Results flagged for a closer look

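The effect of the knockout label differed between the cultures of A549 for 21 of the 44 genes by limma's interaction test. The largest of these differences, oncosphere minus normal culture on the log2(TPM + 1) scale, were IFI27 at -6.35, IFI6 at -4.93 and ISG15 at -4.87. It differed between the lines, H2023 minus A549, for 10 genes in normal culture, with BST2 at -3.29, OAS1 at 3.08 and RNF213 at -1.34 the largest. In oncospheres it differed between the lines for 22 genes, with IFI27 at 7.24, MX1 at 5.17 and OAS2 at 5.13 the largest. The test between lines was chosen after seeing the data. These differences rest on 2 libraries a group, and the wild-type A549 oncosphere replicates enter both of the oncosphere results.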

How the results depend on the processing

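The counts of called genes depended on the setting more than the directions did. Of 136 counts of the 44 genes under an alternative, 81 stayed within 1.5 times the reported count and 55 did not, while 133 of 136 medians and all 248 values of named genes kept their sign. Many named genes were picked for their large differences in these data. The alternatives reuse the same libraries, so these signs had little room to change. In A549 normal culture the fit over 8 libraries called 4, where it called 15.4% of all genes. Without 1 library that count was lower, and those fits, which keep 1 library in a group, called fewer of all genes. In A549 oncospheres the 27 calls became 0 in each 3-library fit and 22 to 43 in the fits over 8 libraries without 1. Leaving out 1 library gave 40 to 44 calls for culture in wild-type A549, 1 to 10 with the knockout label, 0 to 38 for the culture difference in A549, 2 to 6 and 5 to 20 for culture in H2023 wild type and knockout label, and 4 to 9 and 2 to 30 for the line difference in normal culture and oncospheres. In the H2023 comparisons of the label, leaving out 1 library gave 0. For H2023 normal culture the filter gave 4 calls, centring 4, the 8-library fit 3, and 5 calls came from the authors' deposited table. For H2023 oncospheres the last 2 gave 3 and 5. Culture in H2023 wild type gave 13 when centred (14.9% of all genes) and 4 with only its 4 libraries (6.06%). With the knockout label it gave 11 with only its 4 libraries (22.8%). Differences of the fold changes in the authors' deposited table gave 32 calls for culture in A549 (8.31% of all genes). They gave 1 for culture in H2023 (0.39%) and 37 for line in oncospheres (12.9%). The cause of these shifts was not tested, beyond the fewer libraries of the leave-outs. TPM keeps no depth, so what depth limits could not be set.

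Same-numbered replicates deviated together with r of 0.077 and 0.124 in A549 normal culture and oncospheres and 0.037 and 0.476 in H2023, over 2 pairs each. The labels do not say that the numbers pair libraries. In oncospheres most of the 44 genes were higher in the same replicate in wild type and with the knockout label. This was replicate 1 for 44 and 43 genes in A549, and replicate 2 for 36 and 40 in H2023. The gaps were small in normal culture. The main fits use no block, and whether same-numbered libraries share a batch was not tested. With the replicate number as a block, the calls for the label in A549 were 11 in normal culture and 38 in oncospheres. The same fits called 11.6% and 15.2% of all genes. In H2023 they were 0 and 0 (0.0% of all genes). For culture in A549 they were 43 in wild type and 15 with the knockout label (41.7% and 21.6% of all genes). In H2023 these were 10 and 18 (23.4% and 29.6%). The blocked culture difference gave 33 in A549 (6.93%) and 0 in H2023 (0.0%). The blocked line difference gave 12 in normal culture (10.9%) and 15 in oncospheres (9.88%).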

Other observations

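Genes outside the list were ranked by how closely their log2(TPM + 1) followed the mean of the standardised levels of the 44 genes over the 16 libraries. Of 14781 genes with a mean of at least 1 TPM, the 10 most alike were HELZ2, TRIM34, HSH2D, LYZ, NPAS1, BTN3A2, TRANK1, FAM83E, PHF11 and MARVELD2, with Pearson's r from 0.963 to 0.918. The 16 points share 8 groups and their libraries, so these values are descriptions. HELZ2, a helicase and transcriptional co-activator, measured 72.09 and 39.51 TPM in wild-type A549 oncospheres, 9.18 and 5.12 TPM with the knockout label, and 3.18 and 3.99 TPM in wild-type normal culture. HSH2D, an adaptor known from lymphocytes, measured 17.31 and 6.84 TPM, 0.7 and 0.18 TPM, and 0.18 and 0.21 TPM in the same groups. FAM83E measured 17.9 and 9.49 TPM, 0.26 and 0.39 TPM, and 0.14 and 0.36 TPM. Both wild-type oncosphere libraries lay above the other 6 A549 libraries for these genes. Within the list DDX60 followed the other 43 genes most closely (r = 0.989), and RNF213 (0.106), LGALS3BP (0.392), IFIH1 (0.444) and HERC5 (0.461) least.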
